A study of Mus musculus with 2 samples.

Results

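The miR-30 family in the embryonic mouse kidney consists here of 6 microRNA (miRNA) genes, Mir30a, Mir30b, Mir30c-1, Mir30c-2, Mir30d and Mir30e. They were chosen by name, as the genes of this family, from the 1973 miRNA genes that the files list. The study sequenced small RNA below 30 nt from kidneys of healthy B6NCrl mouse embryos at 15.5 days of development (E15.5). It has 1 group of 2 libraries, labelled biological replicates 1 and 2, each made from pooled embryos of both sexes (78 in replicate 1 and 62 in replicate 2). There is no other tissue, age, genotype or treatment, so the data give the level of each gene and how closely the pools match, and any test between libraries compares these libraries and not conditions.

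MiRNAs are cut from hairpin precursors as short strands from the 5p and 3p arms, and the strand loaded into Argonaute pairs with messenger RNAs through its seed (bases 2 to 8). Members of the miR-30 family share the seed of their 5p strand, so they can bind many of the same sites. In the kidney the family is known from nephron epithelium and from podocytes, the filtering cells of the glomerulus, and it is studied for its part in pronephros formation and podocyte maintenance. In whole kidney, fewer cells of a type and less RNA per cell cannot be told apart, and messenger RNAs that mark the nephron or podocytes were not measured, so the cells behind these counts cannot be named.

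The sequences below show why some members can be counted gene by gene and others only in part. Mature strands came from RefSeq (GRCm38.p6, the assembly also called mm10), which gave entries for 4 of the 6 genes in the table used. Mir30b and Mir30d are named only. The strands are written 5′ to 3′ with the seed in capitals.
miR-30a-5p (Mir30a): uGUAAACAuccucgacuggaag
miR-30e-5p (Mir30e): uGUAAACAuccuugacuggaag
miR-30c-5p (Mir30c-1 and Mir30c-2): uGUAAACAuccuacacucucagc
miR-30a-3p (Mir30a): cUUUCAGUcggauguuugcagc
miR-30e-3p (Mir30e): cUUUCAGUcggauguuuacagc
miR-30c-1-3p (Mir30c-1): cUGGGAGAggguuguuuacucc
miR-30c-2-3p (Mir30c-2): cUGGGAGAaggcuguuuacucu

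All 3 distinct 5p strands carry the seed GUAAACA and are identical over their first 12 bases. The 3p strands fall into 2 seed groups, UUUCAGU for miR-30a-3p and miR-30e-3p and UGGGAGA for both miR-30c 3p strands. Counted from 1 at the 5′ end, miR-30a-5p and miR-30e-5p differ by 1 substitution (C13U) and their 3p strands by 1 substitution (G18A). MiR-30c-5p differs from miR-30a-5p at 5 of 22 positions (C13A, G14C, G18C, G19U and A20C). The 3p strands of Mir30c-1 and Mir30c-2 differ from each other at 3 positions (G9A, U12C and C22U). Outside the family, the seed GUAAACA stood in 1 further strand of the RefSeq table, miR-384-5p. Its gene Mir384 was measured at 12.9 and 18.1 CPM in replicates 1 and 2 (CPM, counts per 1000000 own-strand gene counts of a library).

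MiR-30c-5p is the same 23 nt in both of its genes. The hairpins of Mir30c-1 and Mir30c-2 are printed to show how far this identity runs, with the longest stretch they share in capitals.
Mir30c-1 hairpin: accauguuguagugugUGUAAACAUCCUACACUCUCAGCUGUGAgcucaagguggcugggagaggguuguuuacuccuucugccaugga
Mir30c-2 hairpin: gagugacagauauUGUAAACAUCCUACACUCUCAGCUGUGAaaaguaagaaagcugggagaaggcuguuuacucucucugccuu

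The shared stretch is 28 nt and holds the whole of miR-30c-5p, so a read inside it has the same sequence at both loci. The next longest stretch shared by any pair of the 4 hairpins is 18 nt, between Mir30a and Mir30e, shorter than any of their mature strands. Of 1674 distinct mature sequences in the RefSeq table, 59 (3.52%) stood in more than 1 of its 1005 hairpins. In the deposited counts, reads that match several loci have a line of their own and belong to no gene. They numbered 3901906 in replicate 1 and 3222867 in replicate 2, or 0.525 and 0.550 per read counted to a gene on its own strand. The files do not say which miRNAs they come from, so the counts of Mir30c-1 and Mir30c-2 are no measure of miR-30c-5p.

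The genes lie in 3 pairs (mm10, GENCODE M21), each on 1 strand. Mir30a (chr1:23272269-23272339) and Mir30c-2 (chr1:23291701-23291784) lie on the plus strand with 19.4 kb between them. Mir30a overlaps no other annotated gene, and Mir30c-2 overlaps an exon of the long noncoding RNA Gm27028. Mir30e (chr4:120772606-120772697) and Mir30c-1 (chr4:120769534-120769622) lie 2.98 kb apart on the minus strand in introns of Nfyc, which encodes the C subunit of the transcription factor NF-Y. Mir30d (chr15:68341208-68341289) and Mir30b (chr15:68337415-68337510) lie 3.70 kb apart on the minus strand. Mir30d overlaps exons of Gm20732, a long noncoding RNA, and of Gm37296, and Mir30b overlaps an exon of Gm26621. In each pair the gene nearer the 5′ end of the strand (Mir30a, Mir30e and Mir30d) had the higher count. The counts of Mir30c-2 and Mir30c-1 may lack reads of miR-30c-5p, so for their pairs this is no order of the mature strands.

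The libraries held 7434182 reads (replicate 1) and 5863293 reads (replicate 2) on the own strand of miRNA genes. The family took 204713 of them in replicate 1, or 2.75% (95% exact binomial interval 2.74 to 2.77), and 226549 in replicate 2, or 3.86% (3.85 to 3.88). The mean was 3.31% ± 0.785 (SD, n = 2). With reads matching several loci added to the library totals it was 2.15%, and all levels below were lower by a like factor. Such intervals cover counting error only, and reads without molecular identifiers are not independent molecules. Each count is for a whole hairpin gene, so the arms are not told apart. The mature strands listed above are 22 or 23 nt long, and levels of genes were compared without division by hairpin length. Read lengths were not analysed here, and division by hairpin length kept the order of the genes.

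By reads counted to a gene, the members split into an abundant and a scarce set of 3 each. Reads inside the stretch shared by Mir30c-1 and Mir30c-2 may be missing from their counts and from the family's total. Mir30e was the highest, with 14580.5 CPM in replicate 1 and 19890 CPM in replicate 2. It made up 52.9% and 51.5% of the family's counts and ranked 15th among all genes by mean level. Mir30a followed with 9427 and 13870.5 CPM, or 34.2% and 35.9% of the family, at rank 19. Both values of Mir30e lay above both values of Mir30a. Within a library the ratio of Mir30e to Mir30a was 1.55 (replicate 1, 95% exact binomial interval 1.53 to 1.56) and 1.43 (replicate 2, 1.42 to 1.45).

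Mir30d stood at 3289 and 4643 CPM, 11.9% and 12.02% of the family, at rank 38. Mir30a exceeded it 2.87-fold and 2.99-fold, and the values of Mir30a and Mir30d did not overlap. Together Mir30e, Mir30a and Mir30d supplied 99.1% of the family's counts in replicate 1 and 99.4% in replicate 2.

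Mir30c-1, Mir30b and Mir30c-2 ranked 184, 187 and 208. Mir30c-1 had 642 and 595 reads, or 86.4 and 101 CPM. Mir30b had 794 and 438 reads, or 107 and 74.7 CPM. Mir30c-2 had 352 and 349 reads, or 47.3 and 59.5 CPM, and was lowest in both libraries. Mir30b stood above Mir30c-1 in replicate 1 (Mir30c-1 at 0.809 of it) and below it in replicate 2 (Mir30c-1 at 1.36 times), so these neighbours in the order did not differ beyond their spread. All 6 genes passed the count minimum, and no order of levels can pass a test over 2 libraries, where the smallest two-sided exact p is 0.50.

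**Figure D1:**
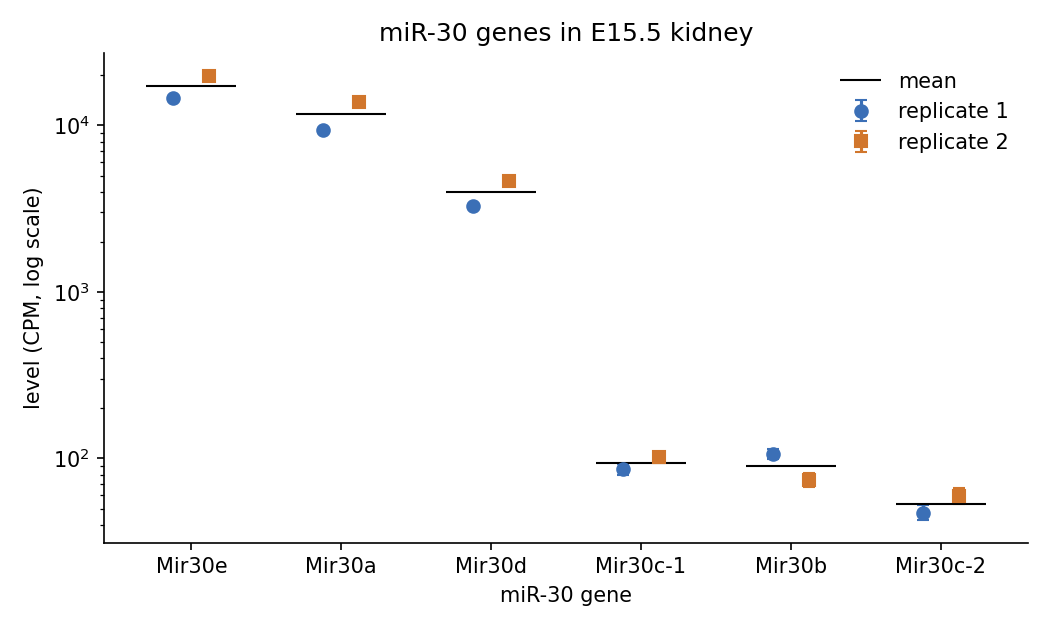
Level of each miR-30 gene in CPM on a log axis, with circles for replicate 1, squares for replicate 2, 95% exact binomial intervals as error bars and the mean as a line. Mir30e, Mir30a and Mir30d stand at 3289 CPM or more in both libraries, while Mir30c-1, Mir30b and Mir30c-2 stand between 47.3 and 107 CPM.

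**Figure D2:**
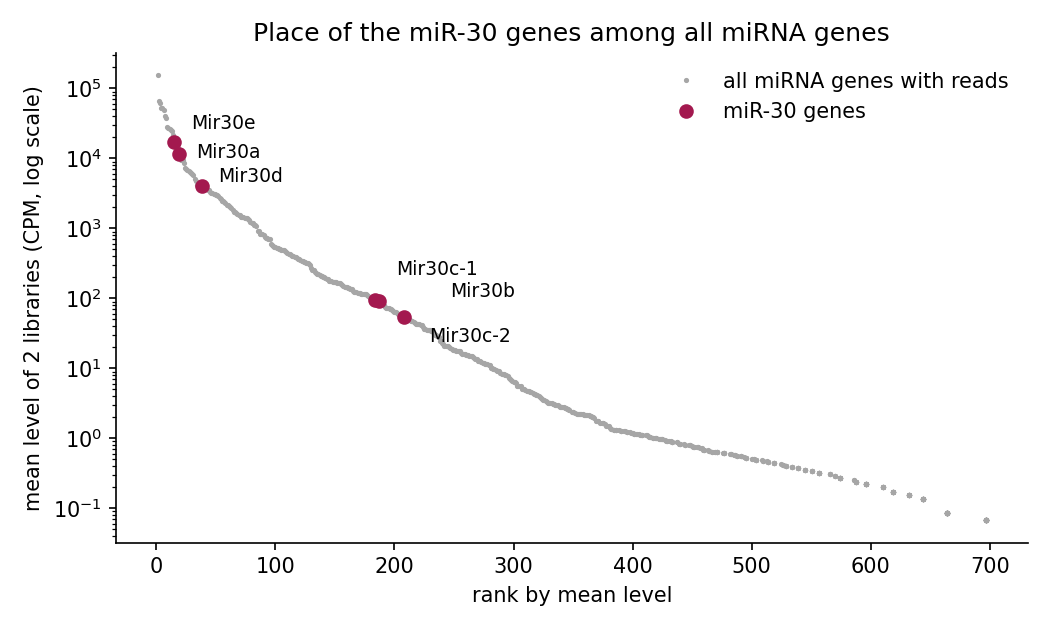
Mean level of every miRNA gene with reads (grey, CPM on a log axis) against its rank, with the miR-30 genes in red. The genes form one set at ranks 15 to 38 and another at ranks 184 to 208.

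The miR-26 family also held an abundant gene and scarce genes with a shared strand. Mir26b, from the list of further kidney miRNAs, stood at 26439 and 26350 CPM, while Mir26a-1 stood at 9.68 and 13.3 CPM and Mir26a-2 at 40.8 and 45.0 CPM. MiR-26a-5p is held by both of the latter hairpins. Of 12 measured genes of the lists described below that have a strand also held by another hairpin, 10 had a mean under 100 CPM. The remaining genes were Mir196a-2, at 2416 and 3366 CPM, and Mir92-1, at 3097 and 3571 CPM. Among all 1973 genes, only those down to rank 181 had a mean of 100 CPM or more. The lists hold chosen genes, while the 1973 genes include many without reads, so these sets are not alike. Whether list genes with a shared strand differ in level from the other list genes was not tested. List genes without a RefSeq entry could not enter the tally of shared strands. The part that reads set apart play in the low counts of Mir30c-1 and Mir30c-2 was not tested.

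The counts of the genes within a pair differed widely. Reads inside the stretch shared by Mir30c-1 and Mir30c-2 may be missing from the counts of both. The counts of Mir30a were 199-fold (179 to 222) and 233-fold (209.8 to 259.6) those of Mir30c-2 in replicates 1 and 2. Mir30e stood 169-fold (156 to 183) and 196-fold (181 to 213) above Mir30c-1. Mir30d stood 30.8-fold (28.7 to 33.1) and 62.1-fold (56.5 to 68.5) above Mir30b, the only pair in which the fold in replicate 2 lay over 1.5 times from that in replicate 1. As a comparison, 94 other pairs of neighbouring miRNA genes on 1 strand lay at most 20 kb apart with a mean count of at least 100 for each gene. Their median difference in mean level was 2.75 on the log2 scale, against 7.77 for Mir30a and Mir30c-2, 7.52 for Mir30e and Mir30c-1, and 5.45 for Mir30d and Mir30b. A larger difference was seen in 2, 4 and 15 of the 94 pairs, respectively.

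The same genes were then compared between libraries, with a ratio of CPM in replicate 2 over replicate 1. The summed family was 1.40 times higher in replicate 2, a log2 ratio of 0.49 (95% exact binomial interval 0.48 to 0.50). Mir30a had a log2 ratio of 0.56 (0.54 to 0.57), Mir30d 0.50 (0.47 to 0.52) and Mir30e 0.45 (0.44 to 0.46). These ratios lay close together, and the share of each of these genes in the family differed by less than 2 percentage points between the libraries. Mir30c-2 had 0.33 (0.11 to 0.55) and Mir30c-1 0.23 (0.069 to 0.40). Mir30b was lower in replicate 2, at -0.52 (-0.69 to -0.35).

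In a two-sided exact binomial test over 378 genes with Benjamini-Hochberg adjustment at 0.05, 5 of the 6 genes were called higher in replicate 2, against 40.2% of all genes tested. The remaining gene, Mir30b, was called lower (adjusted p = 4.13e-09), against 15.6% of all genes tested. The adjusted p of this binomial test was 0.00983 for Mir30c-1 and 0.00530 for Mir30c-2. The median log2 ratio of the members was 0.39 and that of all genes tested 0.15. The split of all calls, 152 higher and 59 lower, rests on the scaling, since it was 109 and 111 with TMM factors and 103 and 120 with DESeq2 size factors. These scalings moved every log2 ratio by -0.13 and -0.16. Mir30e, Mir30a and Mir30d stayed called higher and Mir30b lower under both, but Mir30c-1 (adjusted p = 0.284 and 0.471) and Mir30c-2 (adjusted p = 0.109 and 0.182) were no longer called in the binomial test.

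Differences of this size were common between the pools. Of the 264 genes whose mean count reached 100, 16.7% had a larger absolute log2 ratio than Mir30a, 21.2% a larger one than Mir30b, 22.0% than Mir30d and 24.2% than Mir30e. For Mir30c-2 the share was 36.4% and for Mir30c-1 52.3%. The coefficient of variation over the 2 libraries ran from 11.4% for Mir30c-1 to 27.0% for Mir30a, beside a biological coefficient of variation of 0.231 that edgeR estimated over 378 genes.

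**Figure D3:**
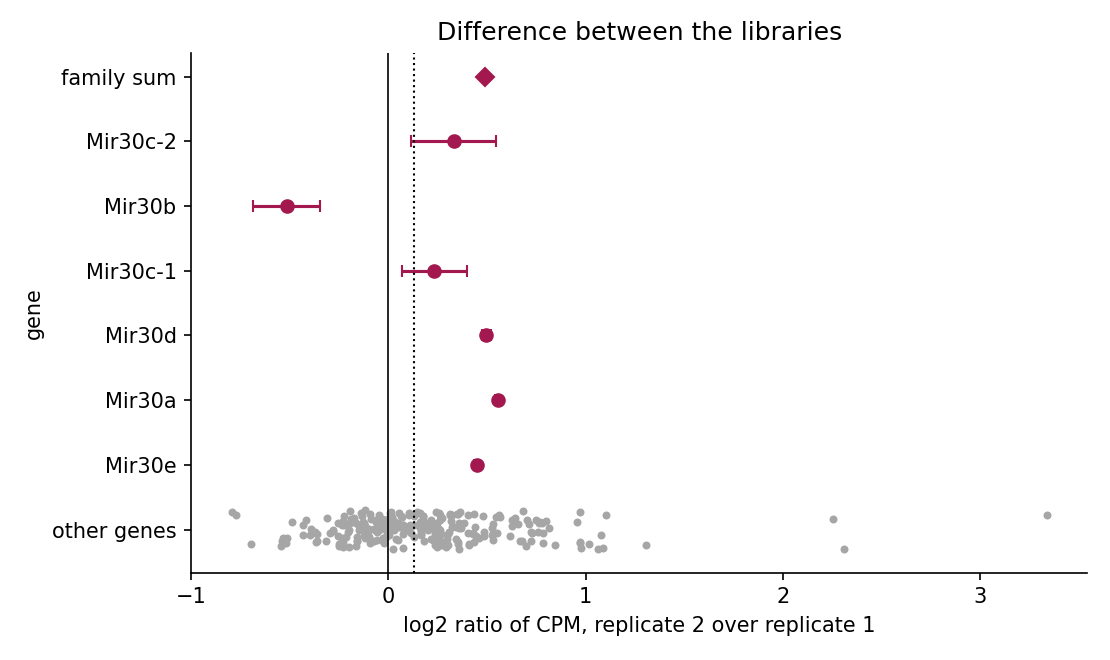
Log2 ratio of CPM in replicate 2 over replicate 1 for each miR-30 gene and their sum (red, with 95% exact binomial intervals) and for the other genes whose mean count reached 100 (grey, spread vertically for display). The solid line marks 0 and the dotted line the median of all 264 genes of that count, members included, 0.13. Mir30b, at -0.52, is the family's only gene left of 0.

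Ratios between genes of 1 library do not depend on how libraries are scaled. The ratio of Mir30d to Mir30b was 2.02-fold higher in replicate 2 than in replicate 1, a difference of 1.01 on the log2 scale (95% exact conditional interval 0.84 to 1.19). The ratio of Mir30a to Mir30c-2 differed by 0.23 (0.0089 to 0.45) and that of Mir30e to Mir30c-1 by 0.22 (0.052 to 0.38). Among the 94 other neighbouring pairs the median absolute difference was 0.33, and 3 pairs exceeded the value of Mir30d and Mir30b. For the other pairs of the family, 58 (Mir30a and Mir30c-2) and 59 (Mir30e and Mir30c-1) of the 94 were larger. Against each of the 5 other members, the log2 ratio of Mir30b was lower by 0.75 (Mir30c-1) to 1.07 (Mir30a), and no interval of these differences reached 0. With 1 value of each ratio per library, the spread of such differences between further pools is not known.

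**Figure D4:**
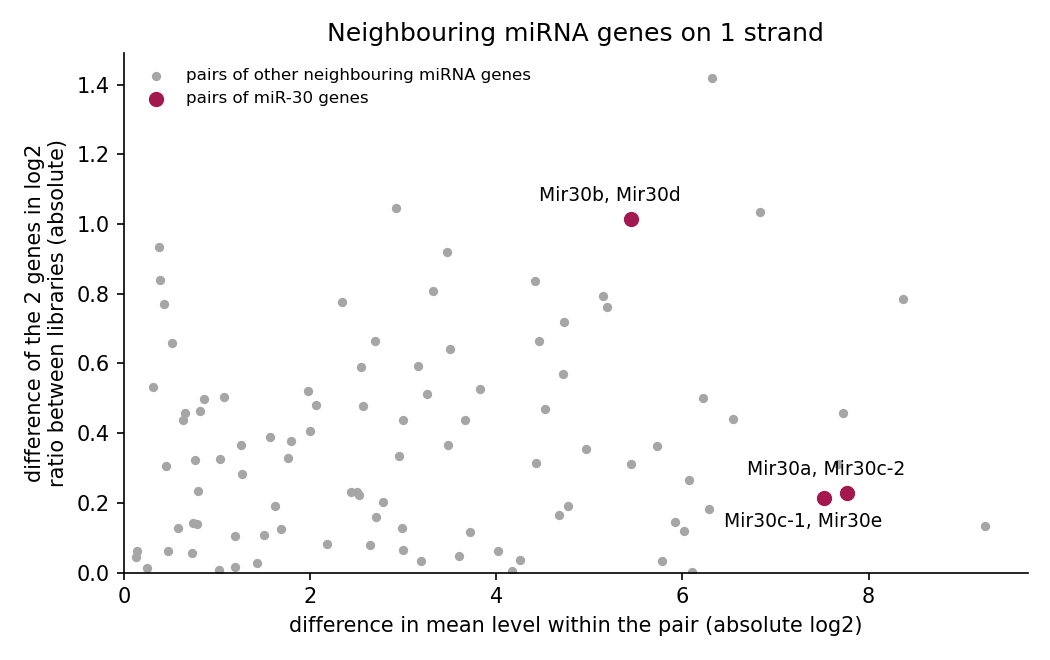
Each point is a pair of neighbouring miRNA genes on 1 strand, with the absolute log2 difference in mean level on the x axis and the absolute difference of their log2 ratios between libraries on the y axis. The miR-30 pairs (red) lie to the right at 5.45 to 7.77, and Mir30d with Mir30b stands at 1.01 on the y axis, against 0.22 and 0.23 for the other two.

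By likeness of the log2 ratio between the libraries, the genes nearest to the summed family, among 153 others with a mean count of at least 1000, were Mir196a-2 at 0.48, Mir330 at 0.46 and Mir370 at 0.53. Such likeness is over 2 libraries only, and 13 of the 153 genes lay within 0.1 of the family.

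The family was set beside miRNAs of other parts of the kidney. The miR-200 family, which maintains epithelial identity, held 2.48% of counts in replicate 1 and 2.13% in replicate 2. Of its 5 genes, 4 were called lower in replicate 2, against 15.6% of all genes, and 1, Mir200c, higher, against 40.2%, with a median log2 ratio of -0.24. With TMM factors or DESeq2 size factors Mir200c turned, and 5 of 5 were called lower. The miR-30 family thus exceeded it 1.11-fold and 1.81-fold in replicates 1 and 2. Nephron progenitor miRNAs of the miR-17-92 and miR-106b-25 clusters, known to promote proliferation, held 6.17% and 6.08%. Of these 9 genes, 2 were called higher and 4 lower by CPM, but 1 higher and 7 lower under either of those scalings. Of all 378 genes tested, 40.2% were called higher and 15.6% lower by CPM. With TMM factors 109 were called higher and 111 lower, and with DESeq2 size factors 103 and 120. These calls over all genes are the background for each list here and below. The further nephron and kidney-enriched miRNAs held 4.97% and 5.07%, with 2 of 12 called higher (Mir23b and Mir184) and 3 lower (Mir192, Mir203 and Mir204). Under either scaling 1 was called higher and 6 lower, and the median log2 ratio turned from 0.025 to -0.10 (TMM) and -0.13 (DESeq2). Of the adult-kidney miRNAs in that list, Mir204 stood at 234 and 167 CPM and Mir192 at 192 and 119 CPM, while Mir194-1, Mir194-2 and Mir215 were not called by CPM.

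**Figure D5:**
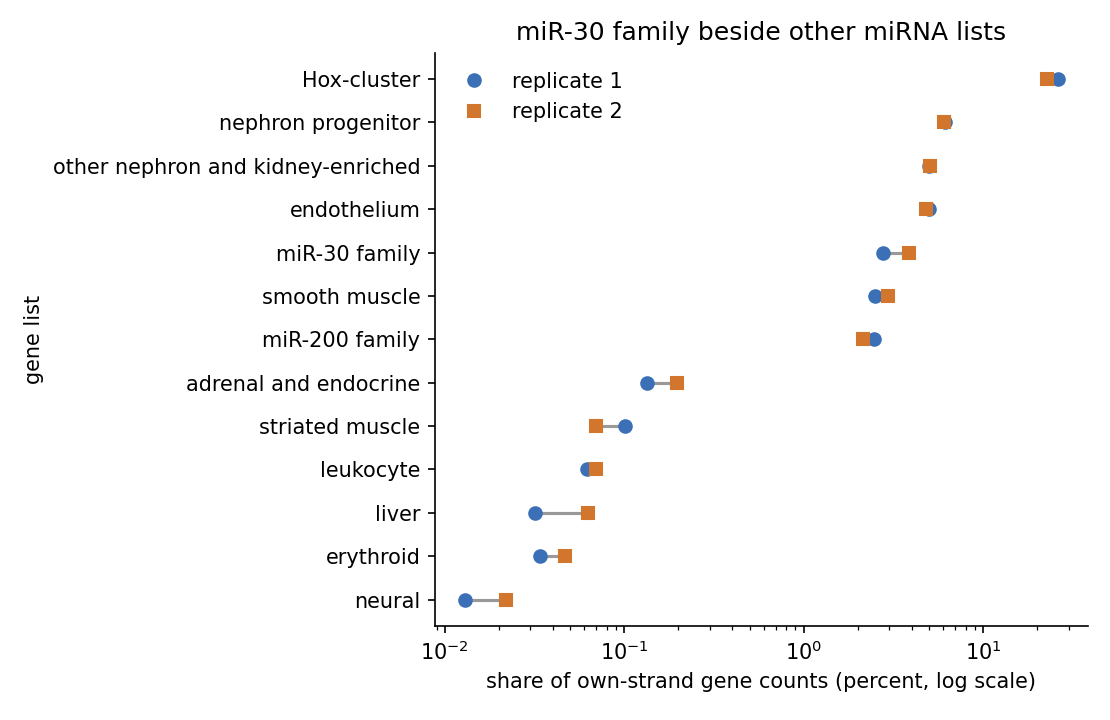
Share of own-strand gene counts in percent (log axis) of the miR-30 family and of 12 other miRNA lists, with circles for replicate 1 and squares for replicate 2. The miR-30 family stands at 2.75% and 3.86% in replicates 1 and 2, and the miR-200 family at 2.48% and 2.13%. Reads that match several loci are left out, so lists with shared strands may be undercounted.

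Markers of other tissues also differed between the pools, to varying degrees. The background by CPM was 40.2% of all genes called higher and 15.6% called lower. Mir126a of endothelium differed little, at 4.97% and 4.78%, a log2 ratio of -0.056, and was called lower. Smooth muscle miRNAs held 2.50% and 2.94%, with Mir143 called higher and Mir145a not called by CPM. With DESeq2 size factors 1 smooth muscle gene was called lower. Hox-cluster miRNAs, which mark position along the trunk and are not specific to kidney, held 26.1% and 22.6%, with 2 of 5 genes called higher (Mir196a-1 and Mir196a-2) and 3 lower (Mir10a, Mir10b and Mir196b). Mir122 of liver was called higher in replicate 2, at 319 and 628 CPM (0.0319% and 0.0628%), and all 4 adrenal and endocrine genes were called higher, with a sum of 0.134% and 0.198%. The erythroid sum was 0.0339% and 0.0466% (1 of 2 genes called higher) and the leukocyte sum 0.0619% and 0.0700% (1 of 3 higher). The neural sum was 0.0129% and 0.0219%, with 1 of 2 tested genes, Mir137, called higher. Mir9-3, the other tested neural gene, had a log2 ratio of -1.32 on 19 and 6 reads and was not called by CPM. The median log2 ratio of the neural list was -0.27. The striated muscle sum was 0.101% and 0.0695%, with 2 of 3 tested genes called lower. Under TMM factors or DESeq2 size factors, 1 of 5 Hox-cluster genes was called higher, and the leukocyte and neural lists had 1 gene each called lower as well. In these lists Mir1a-1, Mir133a-1, Mir133a-2, Mir9-2 and the 3 Mir124a genes were at 0, and Mir1a-2, Mir9-1 and Mir142 were not analysed here. Both mature strands of Mir9-2 also stand in other hairpins, so its count of 0 does not show that miR-9 was absent. No mature strand of the Mir124a genes, the Mir133a genes or Mir1a-2 was in the RefSeq table used. Sharing of strands was thus not checked for them, nor between Mir1a-1 and Mir1a-2. Their counts of 0 do not show absence either. The part of these differences in the ratio of the miR-30 genes was not tested.

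No read lay on the strand opposite to any of the 6 genes in either library, and a count of 0 leaves room for 3 counts per gene, that is 0.404 CPM (replicate 1) or 0.512 CPM (replicate 2). The strand opposite to Mir30e carries the annotated gene Mir30f, which was not analysed here. Counts without regard to strand were therefore the same as own-strand counts for every member.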

How the data were processed

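The members, gene lists and comparisons were chosen with earlier results of these data known. The deposited files give raw counts for each miRNA gene (unstranded, own strand, opposite strand), made by the authors from alignments to mm10 with GENCODE M4, per the deposited notes. No source used here names the aligner or counter. Totals leave out reads that were unmapped (17.7% and 19.7%), matched several loci (27.1% and 26.6%) or lay in no gene. Identifiers were matched to GENCODE M21 (1894 of 1973 matched). CPM used own-strand gene totals.

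Genes whose mean count reached 10 were compared between libraries (exact binomial test, two-sided, p-values adjusted by Benjamini-Hochberg, threshold 0.05). The test was tried on simulated counts drawn from the measured means with counting error only. That setting is the one the test assumes, so it cannot show how the test behaves with variation between pools. The named genes are the 6 members, genes sharing the 5p seed and the 3 genes nearest in ratio. Other list members, and the pairs of neighbouring genes, were chosen after values were seen. Scaling alternatives came from edgeR 4.0.16 (TMM) and DESeq2 1.42.0 in R 4.3.3, the rest from Python 3.11.15 with scipy 1.17.1, pandas 2.3.3, numpy 2.4.6 and matplotlib 3.10.9. The replicates are separate pools, and the p-values set their difference against counting error only, not against variation between pools.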

Additional observations from a re-analysis of the deposited data

How the results depend on the processing

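No paired analysis was possible because there is 1 group. With reads matching several loci added to the library total, the family's share was 2.15%, and the mean level was 11198 CPM for Mir30e, 7566 for Mir30a, 2576 for Mir30d, 61.1 for Mir30c-1, 59.1 for Mir30b and 34.7 for Mir30c-2, since the total is larger. With TMM factors and DESeq2 size factors, the log2 ratio between libraries was 0.10 and 0.073 for Mir30c-1 and 0.20 and 0.17 for Mir30c-2, which were then no longer called, so that 3 members were called higher under either scaling. The same scalings raised the count of all genes called lower to 111 and 120. Division by hairpin length changed the log2 ratio of Mir30e over Mir30a from 0.57 to 0.20 and that of Mir30a over Mir30d from 1.55 to 1.76. The log2 ratio of Mir30c-1 over Mir30b ran from -0.31 without replicate 2 to 0.44 without replicate 1. Leaving out 1 of 2 libraries always moves a mean by less than 1 SD, and counts without regard to strand equal own-strand counts for the members, so neither tests stability. Among gene lists, scalings tried after the data were seen turned the median log2 ratio of further kidney miRNAs (0.025) to -0.10 (TMM) and -0.13 (DESeq2), and that of smooth muscle (0.15) to -0.014 (DESeq2). Depth limits the scarce genes most, with 349 to 794 reads each.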
